A study of Homo sapiens with 10 samples.

Results

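Genes transcribed downstream of the ERK kinases were followed across MEOX2 knockdown and MEOX2 overexpression in human glioma lines. They were taken by name as 10 of the 34567 genes in the table: the dual-specificity phosphatases DUSP1, DUSP4, DUSP5 and DUSP6, the adaptor inhibitors SPRY2, SPRY4 and SPRED1, the ETS-family transcription factors ETV4 and ETV5, and the zinc-finger transcription factor EGR1. No threshold on a measured value was used, but earlier results of these data were known when they were chosen. All 10 passed the filter on low counts in both lines.

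Poly(A) RNA was sequenced from SNB19 and U87, both established human glioblastoma cell lines grown in serum. SNB19 carried either Scramble siRNA (control, 3 libraries) or siRNA against MEOX2 (siMEOX2, 3 libraries), introduced by lipofection. U87 carried either empty vector lentivirus (EV, 2 libraries) or MEOX2 overexpression lentivirus (MEOX2 OE, 2 libraries). The methods describe this line as stably transduced and selected with puromycin. The labels do not say which MEOX2 siRNA was used or whether the replicates were separate cultures, so the p-values measure the spread between these libraries, which may be technical. MEOX2 is a homeobox transcription factor, and the study asked which genes follow its level in glioma cells.

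ERK is the last kinase of the RAS, RAF and MEK cascade, which growth factor receptors switch on. Active ERK induces EGR1 within minutes and then a set of its own restraints: DUSP proteins remove the activating phosphates from MAP kinases, and Sprouty and SPRED proteins act upstream, at the level of receptors, RAS and RAF. ETV4 and ETV5 carry part of the transcriptional programme, and the transcripts of these genes are widely used as a readout of ERK signalling in gliomas and other tumours. Transcript levels are not a measure of ERK phosphorylation. By immunoblot, the study reported less phosphorylated ERK after MEOX2 silencing in SNB19 and more after MEOX2 overexpression in U87. Those protein measurements are not part of the data read here.

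The promoters of EGR1 and DUSP1 are shown because both genes read higher after either manipulation of MEOX2, in U87 without a call by edgeR. A further reason is that their promoters hold a classical signal-response element. DUSP5 and SPRY4 also read higher after both manipulations. The 200 bases before each RefSeq start site (GRCh38.p14) read 5′ to 3′ on the gene's strand, EGR1 at chr5:138465279-138465478 (plus strand) and DUSP1 at chr5:172771196-172771395 (minus strand). Capitals mark 2 CArG boxes in EGR1, the element read by serum response factor with ETS-family partners, and 1 CRE (TGACGTCA) in DUSP1, the element read by CREB and ATF proteins.
EGR1: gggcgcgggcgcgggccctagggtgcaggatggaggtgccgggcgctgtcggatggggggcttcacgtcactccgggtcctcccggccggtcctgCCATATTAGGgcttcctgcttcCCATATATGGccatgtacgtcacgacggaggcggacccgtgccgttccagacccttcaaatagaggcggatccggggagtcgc
DUSP1: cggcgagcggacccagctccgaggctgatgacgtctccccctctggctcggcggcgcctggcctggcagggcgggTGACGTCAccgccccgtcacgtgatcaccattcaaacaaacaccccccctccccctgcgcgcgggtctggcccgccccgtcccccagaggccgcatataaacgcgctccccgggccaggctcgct

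Promoter windows were matched for 6 of the 10 genes (EGR1, DUSP1, DUSP6, SPRY2, SPRY4 and SPRED1; 8 windows, since SPRY2 has more than 1). Both strands of each window, from 250 bases before to 50 after the start, were searched. The CArG boxes of EGR1 lay 105 to 96 and 83 to 74 bases before the start, and 1.29% of all 35116 windows held such a box. The CRE of DUSP1 lay 125 to 118 bases before the start, and 1.85% of all windows held one. The ETS sequence CCGGAAG (10.3% of windows) and the homeobox core TAATTA (4.84%) were in none of the 8 windows. TATAAA (11.5%) was in that of DUSP1 alone, 30 to 25 bases before the start. None of these matches overlapped another. The shorter ETS core GGAA was not searched for. Its reverse complement TTCC lies between the CArG boxes of EGR1 in the stretch printed above. A match is a run of letters and was not tested for binding.

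MEOX2 itself followed the labels. In FPKM, the authors' unit in which counts are scaled by gene length and by the library total, it read 6.01, 6.53 and 7.09 in the SNB19 control libraries and 1.38, 1.11 and 1.39 after siMEOX2, a 5.31-fold fall (log2 −2.41 ± 0.14, SE, adjusted p = 1.35e-11). No read of MEOX2 was counted in either U87 EV library, against 4999 and 5308 reads in the MEOX2 OE libraries. This is at least 3821-fold higher than a floor of 3 reads over the EV group. The treatment labels of EV replicate 2 and of both OE libraries name MEOX3, MEOX4 and MEOX5, whereas their titles name MEOX2. The titles were followed.

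Library totals ran from 12533775 to 16560324 counted reads. One library stood apart: the U87 EV replicate 1. Its 100 most abundant genes took 28.1% of reads, against 17.5% to 19.1% in the other 9, and its correlation with EV replicate 2 over genes was 0.914, against 0.995 to 0.997 for all other replicate pairs. Relative to replicate 2, on log2(CPM + 1) scaled only by library totals, genes under 3471 bases were higher in it (median difference 0.20) and genes over 6322 bases were lower (−0.93). The log2 values that involve U87 EV are therefore given with and without it. VIM, CD44, TNC and FN1, mesenchymal genes of glioma lines, were at or above 12.8 FPKM in every library. The astrocyte marker GFAP did not exceed 0.397 FPKM and S100B was listed at 0 in U87. SOX2 read 5.18 to 14.4 FPKM in SNB19 but 0 to 0.0952 in U87. NES read 3.72 to 10.5 FPKM in SNB19 and 0.187 to 3.04 in U87. OLIG2 read at least 1.13 FPKM and under 12.8 in every library. The sum of these 9 glioma markers was 367 to 378 FPKM in SNB19 control and 170 to 179 after siMEOX2. In U87 it was 695 to 831 in EV and 452 to 484 in MEOX2 OE. VIM alone read 117 to 687 FPKM in U87, so the sum does not show the low markers. Summed markers of leukocytes, epithelium and neurons stayed at or under 4.43 FPKM, and those of endothelium fell from 5.10 to 5.68 in SNB19 control to 0.784 to 1.17 after siMEOX2, mainly through PECAM1. Each library is a culture of a single line, so these sums describe marker genes and not the presence of other cell types. In bulk RNA, fewer expressing cells and less RNA per cell cannot be told apart.

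The libraries of EV replicate 1 and replicate 2 differed at the ERK output genes too. On the same scale replicate 1 was lower at 9 of the 10, by 0.32 (DUSP5) to 1.38 (SPRY2), and higher at ETV4 by 0.43, while 66.1% of all genes tested were lower in it. After the TMM composition scaling that every test uses, it was lower at 7 of the 10, against 50.4% of all genes: DUSP5 (0.14) and ETV5 (0.03) were then higher, as was ETV4 (0.89), and SPRY2 (−0.92) and SPRY4 (−0.92) were the lowest. Without that scaling, SPRY2, EGR1, DUSP1 and DUSP5, in the shorter class, were lower in replicate 1 by 1.38, 1.24, 0.73 and 0.32. That class had an upward median difference as a whole. Its bins with median lengths of 3030 and 3398 bases, near SPRY2 (3038) and EGR1 (3138), had medians of −0.06 and −0.15. SPRED1, DUSP4 and SPRY4, in the longer class, were lower by 1.08, 0.75 and 1.37. The plot of the replicate difference against gene length shows how far each of the genes lies from other genes of its length.

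**Figure D1:**
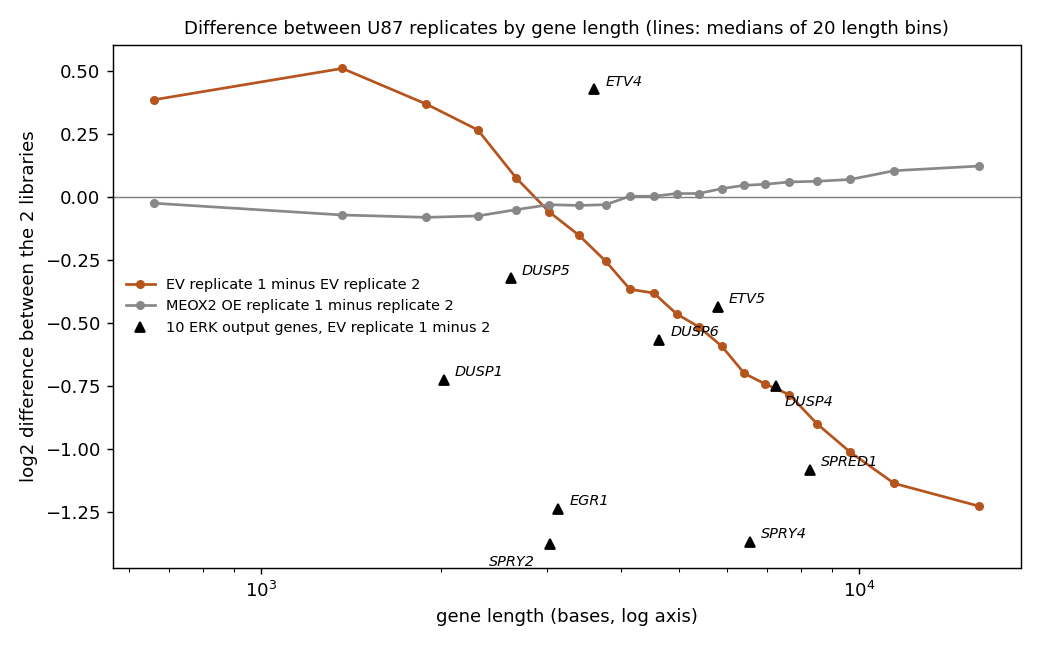
Difference in log2(CPM + 1), scaled by library totals, between replicate libraries of U87 (y axis) against gene length in bases (x axis, log scale). Lines join the medians of 20 length bins, and triangles are the 10 ERK output genes in EV replicate 1 minus replicate 2. The EV line falls from above 0 for short genes to below −1 for the longest, the OE line stays near 0, and SPRY2, EGR1 and DUSP1 lie far below genes of similar length.

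MEOX2 knockdown in SNB19 raised DUSP5, DUSP1, EGR1, ETV5, ETV4 and SPRY4 and lowered DUSP4, SPRY2 and SPRED1. DUSP5 rose the most, 2.86-fold, and DUSP4 fell the most, 2.18-fold, so that the ERK phosphatases moved in opposite directions in the same libraries. DUSP6, the cytosolic ERK phosphatase most often used as a readout of the pathway, did not pass the test. Together 9 of the 10 genes were called at an adjusted p under 0.05 by edgeR, 6 higher and 3 lower. Of all 15525 genes tested, 55.9% were called, 27.4% higher and 28.5% lower, so a call is common in this comparison. The median absolute log2 change was 0.46 for the 10 genes and 0.33 for all genes tested.

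DUSP5, a nuclear phosphatase that acts on ERK alone among the MAP kinases, had 32.3, 33.0 and 31.6 FPKM in the control libraries and 92.0, 102 and 97.9 after siMEOX2. The groups were far apart, with a log2 change of 1.52 ± 0.05 (SE, adjusted p = 8.82e-15). DUSP1, a nuclear phosphatase that also acts on p38 and JNK, read 15.7, 15.7 and 16.6 FPKM in control and 37.0, 38.5 and 31.1 after siMEOX2. Every knockdown library lay above every control library (2.11-fold, log2 1.08 ± 0.08, adjusted p = 4.59e-10).

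DUSP4, another nuclear phosphatase, had 7.07, 7.56 and 6.52 FPKM in control and 3.52, 3.26 and 3.40 after siMEOX2. All knockdown libraries were lower, with a log2 change of −1.13 ± 0.08 (adjusted p = 1.92e-10). DUSP6 read 2.41, 2.22 and 3.00 FPKM in control and 2.30, 2.21 and 2.05 after siMEOX2, the lowest levels of the 10 genes in this line. Its groups overlapped (log2 −0.30 ± 0.13, adjusted p = 0.057), and it passed the threshold without control replicate 2 (−0.38) or without siMEOX2 replicate 1 (−0.34). An antisense RNA covers 1875 of the 4632 exon bases of DUSP6 and had at most 5 reads in any library. The library kit does not mark strand, so reads of the pair cannot be told apart. How the counting handled reads over both genes was not examined, so the level of DUSP6 may be understated.

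Sprouty and SPRED genes split. SPRY2 had 5.45, 5.54 and 5.37 FPKM in control and 4.19, 4.01 and 3.62 after siMEOX2, all lower (1.45-fold, log2 −0.54 ± 0.11, adjusted p = 1.98e-04). SPRED1, which brings neurofibromin to RAS, read 6.41, 5.63 and 6.37 FPKM against 4.37, 5.52 and 5.25, and the groups were separated by a small margin (log2 −0.36 ± 0.08, adjusted p = 7.52e-04). SPRY4 went the other way, with 9.72, 10.1 and 10.5 FPKM in control and 11.1, 13.8 and 13.9 after siMEOX2 (log2 0.28 ± 0.07, adjusted p = 0.0029). It was higher in all 3 knockdown libraries, 1.21-fold on average.

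The transcription factors were higher after knockdown. EGR1 had 24.1, 22.3 and 19.2 FPKM in control and 42.7, 45.8 and 36.9 after siMEOX2, without overlap (1.81-fold, log2 0.86 ± 0.08, adjusted p = 1.77e-08). ETV5 read 10.4, 9.96 and 9.54 FPKM in control and 11.7, 14.8 and 14.4 after siMEOX2 (log2 0.37 ± 0.08, adjusted p = 2.88e-04). ETV4 read 5.39, 5.03 and 5.36 FPKM against 6.28, 7.24 and 6.93 (log2 0.30 ± 0.09, adjusted p = 0.0082). Both ETS factors thus rose by less than 1.3-fold, with every knockdown library above every control library. ETV5 shares 164 exon bases with DGKG, which had 111 to 367 reads in a library. ETV4 shares 68 with DHX8 on the other strand, which had 608 to 1744 reads, against 249 to 787 for ETV4 itself.

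Over the 10 genes, the FPKM of the groups did not overlap at 9, and 62.1% of all genes tested had this property. The calls did not depend on any single library of SNB19: each of the 9 was kept whichever of the 6 was left out. When all 10 libraries shared 1 estimate of the spread, DUSP1, DUSP4, DUSP5 and EGR1 were called (4 of 10, against 15.7% of all genes). By the rule of the study's methods (unadjusted p under 0.05 and a log2 change over 1, here with DESeq2), DUSP1, DUSP4 and DUSP5 were called in SNB19, against 10.5% of all genes tested. In both lines this version of the rule took more genes than the study reported, so these are not the study's own calls.

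**Figure D2:**
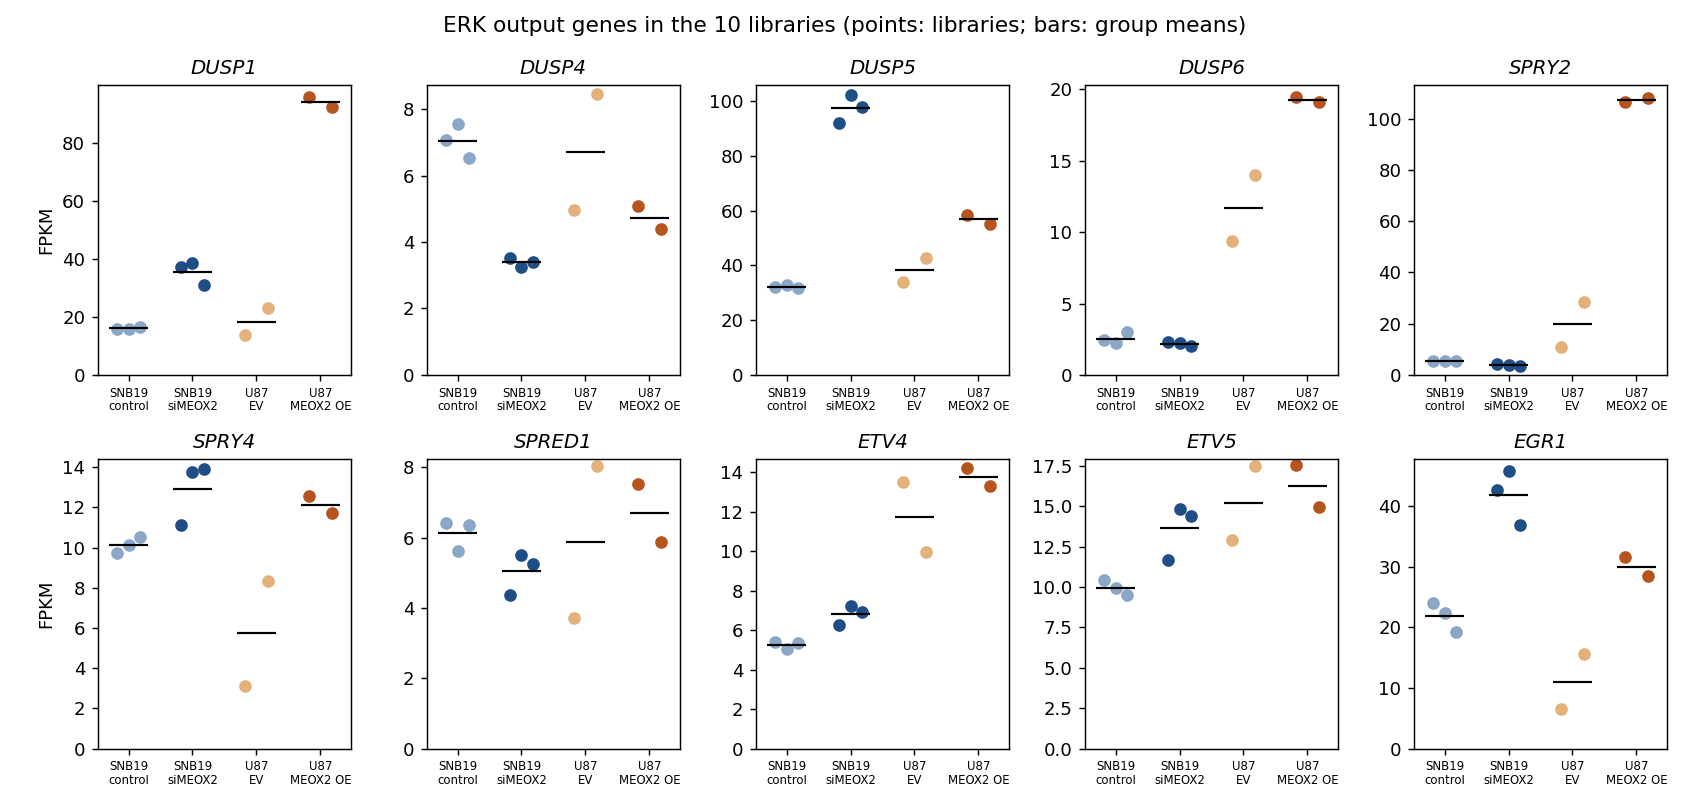
FPKM (y axes, linear from 0) of the 10 ERK output genes in the 4 groups, with 1 point per library and a bar at the group mean. DUSP5, DUSP1 and EGR1 stand higher in SNB19 siMEOX2 than in SNB19 control and DUSP4 stands lower, and SPRY2 and DUSP1 in U87 MEOX2 OE lie far above both EV libraries.

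MEOX2 overexpression in U87 gave differences with wider errors, larger in absolute size than in SNB19 at 5 of the 10 genes (DUSP1, DUSP6, SPRY2, SPRY4 and EGR1) and smaller at the other 5. SPRY2 was 4.88-fold and DUSP1 4.46-fold higher in the MEOX2 OE libraries, EGR1 was 2.41-fold higher and DUSP4 was 1.64-fold lower. None of the 10 genes passed an adjusted p of 0.05 by edgeR, and neither did any of the 14180 genes tested (0%), MEOX2 included (adjusted p = 0.12), so that a gene without a call here is not shown to be unchanged. At an unadjusted p under 0.05 in the same edgeR fit, 2643 genes and 3 of the 10 (DUSP1, SPRY2 and EGR1) were counted. The biological coefficient of variation, edgeR's measure of spread between replicates, was 0.37 in U87 and 0.055 in SNB19. DESeq2 called SPRY2 and DUSP1 (2 of 10, against 6.99% of all genes), and with a log2 change over 1 and an unadjusted p under 0.05 it took EGR1 as well (3 of 10, against 19.6%).

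Without EV replicate 1, 9 of the 10 genes were called and 47.4% of all genes were. Without EV replicate 2, 9 were called and 71.2% of all genes. In both fits the lone EV library was assumed to vary like the OE pair, so their p-values hold no information on the spread of EV. With all 10 libraries in 1 fit, 6 were called (DUSP1, DUSP6, SPRY2, SPRY4 and EGR1 higher, DUSP4 lower) and 26.2% of all genes. The direction at these 6 genes was the same with either EV library left out.

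SPRY2 had 10.8 and 28.6 FPKM in EV and 106 and 108 in MEOX2 OE, the highest level of the 10 genes in that group. The EV libraries differed widely from each other, and both lay far below the OE libraries. The log2 change was 2.29 ± 0.42 (SE, adjusted p = 0.16) and 1.89 ± 0.12 without EV replicate 1. DUSP1 had 13.6 and 22.9 FPKM in EV and 95.7 and 92.4 in MEOX2 OE. All OE libraries were higher, with a log2 change of 2.16 ± 0.28 (adjusted p = 0.13) and 2.03 ± 0.13 without EV replicate 1.

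EGR1 read 6.45 and 15.7 FPKM in EV and 31.5 and 28.4 in MEOX2 OE. Its log2 change of 1.27 ± 0.37 (adjusted p = 0.22) dropped to 0.92 without EV replicate 1, still with the groups apart. SPRY4 read 3.13 and 8.33 FPKM in EV and 12.6 and 11.7 in MEOX2 OE, with a log2 change of 0.92 ± 0.40 (adjusted p = 0.30). This value depended on the EV pair, at 0.53 without replicate 1 and 1.51 without replicate 2.

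DUSP4 had 4.97 and 8.47 FPKM in EV and 5.09 and 4.38 in MEOX2 OE. The groups overlapped in FPKM, and the log2 change after scaling was −0.71 ± 0.27 (adjusted p = 0.27) and −0.85 without EV replicate 1. DUSP6 read 9.39 and 14.0 FPKM in EV and 19.4 and 19.1 in MEOX2 OE, apart in FPKM, with a log2 change of 0.50 ± 0.25 (adjusted p = 0.33) and 0.45 without EV replicate 1. DUSP5, the gene with the largest rise in SNB19, read 34.1 and 42.7 FPKM in EV and 58.5 and 55.2 in MEOX2 OE. Its log2 change was 0.33 ± 0.26 (adjusted p = 0.49) on the scale of edgeR, where EV replicate 1 had a scaling factor of 0.78 against 1.08 to 1.10 in the other U87 libraries, so that its values stand higher than in FPKM. Without that library it was 0.40.

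SPRED1, ETV4 and ETV5 showed no difference that held. SPRED1 read 3.72 and 8.03 FPKM in EV and 7.53 and 5.89 in MEOX2 OE, with a log2 change of 0.01 ± 0.34 that became −0.28 without EV replicate 1 and 0.40 without replicate 2. ETV4 read 13.5 and 9.96 FPKM in EV and 14.2 and 13.3 in MEOX2 OE, with a log2 change of −0.07 ± 0.39 that became 0.45 and −0.42. For these 2 genes the sign is decided by which EV library is kept. ETV5 read 12.9 and 17.5 FPKM in EV and 17.5 and 15.0 in MEOX2 OE, overlapping, at −0.13 ± 0.26 and −0.12 without EV replicate 1. In FPKM the U87 groups did not overlap at 6 of the 10 genes (DUSP1, DUSP5, DUSP6, SPRY2, SPRY4 and EGR1, all higher), against 57.5% of all genes tested.

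**Figure D3:**
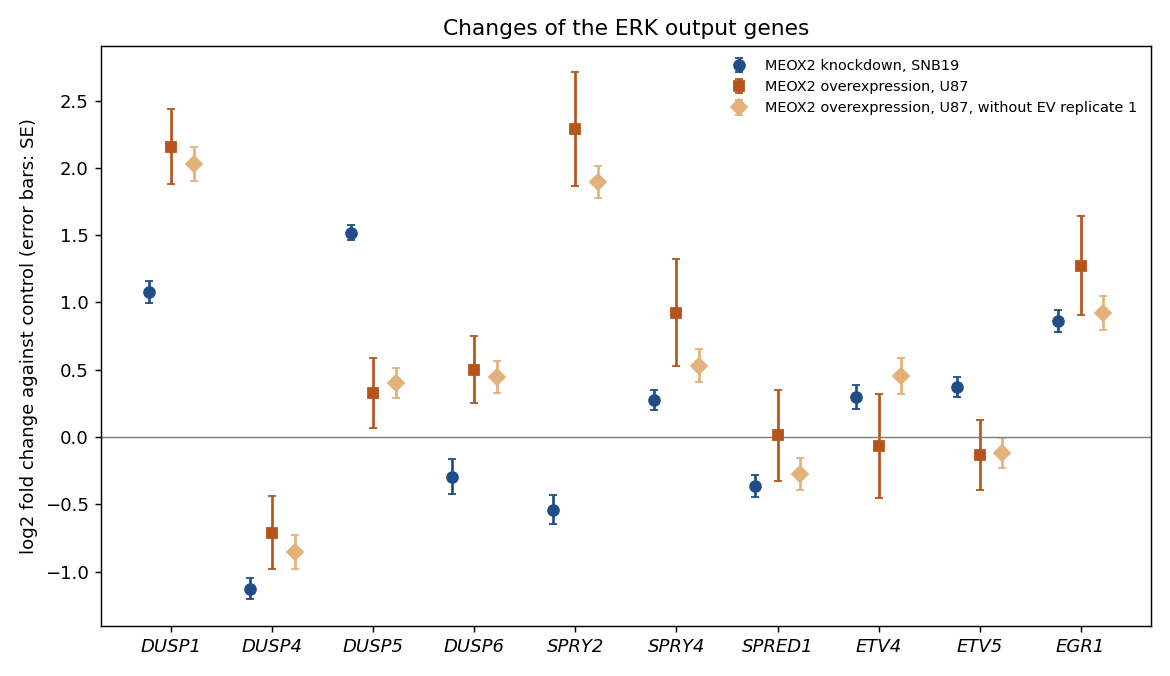
Log2 fold change against the control libraries of the same line (y axis) for each ERK output gene (x axis), with bars of 1 standard error: circles for MEOX2 knockdown in SNB19, squares for MEOX2 overexpression in U87, diamonds for U87 without EV replicate 1. DUSP1 and EGR1 lie above 0 and DUSP4 below 0 in all 3 sets, SPRY2 lies below 0 in SNB19 and near 2 in U87, and ETV4 and SPRED1 in U87 sit on either side of 0 depending on EV replicate 1.

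Since MEOX2 went down in SNB19 and up in U87, a gene that tracked MEOX2 would move in opposite directions. The change in U87 minus the change in SNB19 was tested in 1 fit over all 10 libraries. It passed an adjusted p of 0.05 at 4 of the 10 genes (SPRY2, DUSP5, DUSP1 and DUSP6), against 15.7% of all 17312 genes. SPRY2 fell in SNB19 and read higher in U87 MEOX2 OE, and the difference was 2.85 ± 0.34 (adjusted p = 0.0013). It was 2.49 without EV replicate 1, again called.

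DUSP1 was higher after both manipulations, by 1.11 ± 0.20 more in U87 than in SNB19 (adjusted p = 0.0082) and by 1.01 without EV replicate 1. With the replicate number as a block, the call of DUSP1 was lost (1.12, adjusted p = 0.062), as was that of DUSP6 (0.81, adjusted p = 0.12). DUSP5 was also higher in both, but by 1.16 ± 0.16 less in U87 (adjusted p = 0.0024), and its difference was −1.06 without EV replicate 1. The difference for DUSP6 was 0.82 ± 0.21 (adjusted p = 0.030) and 0.80 without EV replicate 1, with values of −0.30 in SNB19 and 0.50 in U87, neither of which passed its own test. The call of DUSP6 was lost in 7 of the 10 fits that leave out 1 library: those without SNB19 control replicate 1 or 3, any siMEOX2 library or either OE library (0.69 to 0.87). It was also lost without the filter on low counts (0.83).

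Without EV replicate 1, 5 genes passed (ETV5 joined at −0.44, adjusted p = 0.011), against 35.5% of all genes, and without EV replicate 2 all 10 did, against 54.6%. With all libraries, EGR1, DUSP4 and SPRY4 did not pass the test of the difference. For EGR1 it was 0.44 ± 0.32 (adjusted p = 0.38), for DUSP4 0.44 ± 0.20 (adjusted p = 0.16) and for SPRY4 0.67 ± 0.33 (adjusted p = 0.20). Without EV replicate 1 these were 0.12, 0.33 and 0.31. EGR1 pointed up and DUSP4 down in both lines. Whether the line, the reagent or the direction of the MEOX2 change lies behind a difference cannot be told apart, because each line received 1 manipulation only. SNB19 was transfected with siRNA transiently, whereas the methods describe U87 as a lentiviral line selected with puromycin.

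The lines also differed before any change of MEOX2. Between the control libraries, DUSP6 was 5.84-fold, SPRY2 4.40-fold and ETV4 2.99-fold higher in U87 EV than in SNB19 control. Of the 10 genes 7 were called, against 56.9% of all genes, with DUSP6, SPRY2, ETV4, ETV5, DUSP5 and DUSP1 higher in U87 (6, against 28.8%) and EGR1 lower (1, against 28.1%). The log2 differences were 2.55 ± 0.15 for DUSP6 (adjusted p = 1.31e-06), 2.14 ± 0.23 for SPRY2 (adjusted p = 6.20e-05) and 1.58 ± 0.22 for ETV4 (adjusted p = 2.91e-04). Without EV replicate 1 they were 2.61, 2.54 and 1.07. With all libraries, ETV5 (0.96 ± 0.13), DUSP5 (0.61 ± 0.11) and DUSP1 (0.53 ± 0.14) differed by less. At DUSP1 the control groups overlapped in FPKM. EV replicate 1 (13.6) lay below every SNB19 control library (15.7 to 16.6) and EV replicate 2 (22.9) above them. EGR1, at −0.69 ± 0.23 (adjusted p = 0.030), lost its call without SNB19 control replicate 1 (−0.61) or 2 (−0.68). It was −0.33 without EV replicate 1 and −1.13 without EV replicate 2, called in both fits. DUSP4, SPRED1 and SPRY4 did not pass, and without EV replicate 1 DUSP4 (0.42) and SPRED1 (0.54) did, as did SPRY4 (−1.06) without EV replicate 2. EV and Scramble siRNA are different controls, so the line cannot be told apart from the vector.

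The order of the levels shifted accordingly, on the length-scaled FPKM. In SNB19 control it ran from DUSP5 (32.3 ± 0.7, SD, n = 3), EGR1 (21.9 ± 2.5) and DUSP1 (16.0 ± 0.5) through SPRY4 and ETV5, which overlapped each other at 10.1 ± 0.4 and 9.97 ± 0.44, to DUSP4, SPRED1, SPRY2 and ETV4, of which the last 2 overlapped, and DUSP6 (2.55 ± 0.41). After siMEOX2 these 3 genes led again, with EGR1 and DUSP1 overlapping as did ETV5 and SPRY4, and DUSP4 stood at rank 9 in place of rank 6. In U87 EV DUSP5 led (38.4 ± 6.1, SD, n = 2), and each gene from SPRY2 down to SPRY4 overlapped the next. SPRY2, DUSP1, ETV5, ETV4 and DUSP6 still lay wholly above SPRED1 and SPRY4. In U87 MEOX2 OE no neighbours overlapped: SPRY2 (107 ± 1) and DUSP1 (94.1 ± 2.4) led, DUSP5 (56.8 ± 2.3) followed, and SPRED1 and DUSP4 (4.73 ± 0.50) were at the bottom.

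The cascade above these genes and the genes around them were read from 3 lists. Of 31 cascade genes (RAS and RAF family members, MEK and ERK genes, adaptors, RAS inhibitors, ELK factors and RSK kinases) 30 were tested in SNB19, and 6 rose and 10 fell with knockdown, none by more than 1 on the log2 scale, where 27.4% and 28.5% of all genes tested rose and fell. Their median was −0.09, against 0.01 for all genes tested. The cascade genes with the largest changes were RASA2, a RAS GTPase-activating protein (0.92 ± 0.09, adjusted p = 1.78e-08), MAPK3, which encodes the kinase ERK1 (−0.66 ± 0.08, adjusted p = 3.67e-07), and the adaptor SHC1 (−0.59 ± 0.04, adjusted p = 5.99e-10). MAPK3 read 18.7 to 23.0 FPKM in control and 12.7 to 14.4 after siMEOX2, without overlap. SHC1 in U87 read 17.4 and 96.6 FPKM in the EV libraries, with both OE libraries between them.

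Among 28 other feedback and output genes, 26 were tested in SNB19, of which 9 rose and 11 fell, again against 27.4% and 28.5% of all genes. Their median was −0.07, against 0.01 for all genes. PHLDA2, an imprinted growth restrainer, fell from 74.7 to 83.9 FPKM in control to 19.4 to 24.0 (log2 −1.93 ± 0.08, adjusted p = 1.03e-13). MYC rose from 23.3 to 25.5 FPKM to 61.1 to 73.9 (log2 1.35 ± 0.07, adjusted p = 1.25e-12). In U87 MYC read 46.1 and 85.1 FPKM in EV and 216 and 219 in MEOX2 OE, which did not pass the test (log2 1.54 ± 0.32, adjusted p = 0.17, and 1.34 without EV replicate 1).

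DUSP10, a phosphatase that acts mainly on p38 and JNK, resembled SPRY2 in its values. It read 7.61, 5.98 and 6.37 FPKM in SNB19 control and 2.95, 3.13 and 2.70 after siMEOX2 (log2 −1.26 ± 0.12, adjusted p = 1.81e-08). In U87 it read 2.61 and 5.39 FPKM in EV and 37.4 and 38.0 in MEOX2 OE, at a log2 change of 3.05 ± 0.33 (adjusted p = 0.12) and 2.79 without EV replicate 1. The libraries of each group lay apart in both lines.

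Immediate early genes, which growth factors and stress induce without new protein synthesis, were the list with the most rises. Of 24 tested in SNB19, 19 rose and 4 fell with knockdown, 8 of them rising by more than 1 on the log2 scale, and the median was 0.61. Against them stood 27.4% of all genes called higher. The orphan nuclear receptor NR4A3 had the largest value (2.40 ± 0.36, adjusted p = 8.80e-06), but from under 0.13 FPKM in every control library. CCN1, a matricellular protein gene, rose from 93.5 to 109 FPKM to 386 to 425 (log2 1.92 ± 0.06, adjusted p = 6.34e-16). KLF2, a Krüppel-like transcription factor, rose from 5.08 to 6.37 FPKM to 22.3 to 22.5 (log2 1.86 ± 0.09, adjusted p = 8.78e-13).

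In U87 none of the 30, 26 and 23 tested genes of the 3 lists was called by edgeR, with medians of 0.44, 0.53 and 0.64 against −0.06 for all genes. Without EV replicate 1 these medians were 0.01, 0.29 and 0.27, and the calls were 6 higher and 8 lower of 30, 14 higher and 4 lower of 26, and 11 higher and 2 lower of 24, to be read against 47.4% of all genes.

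**Figure D4:**
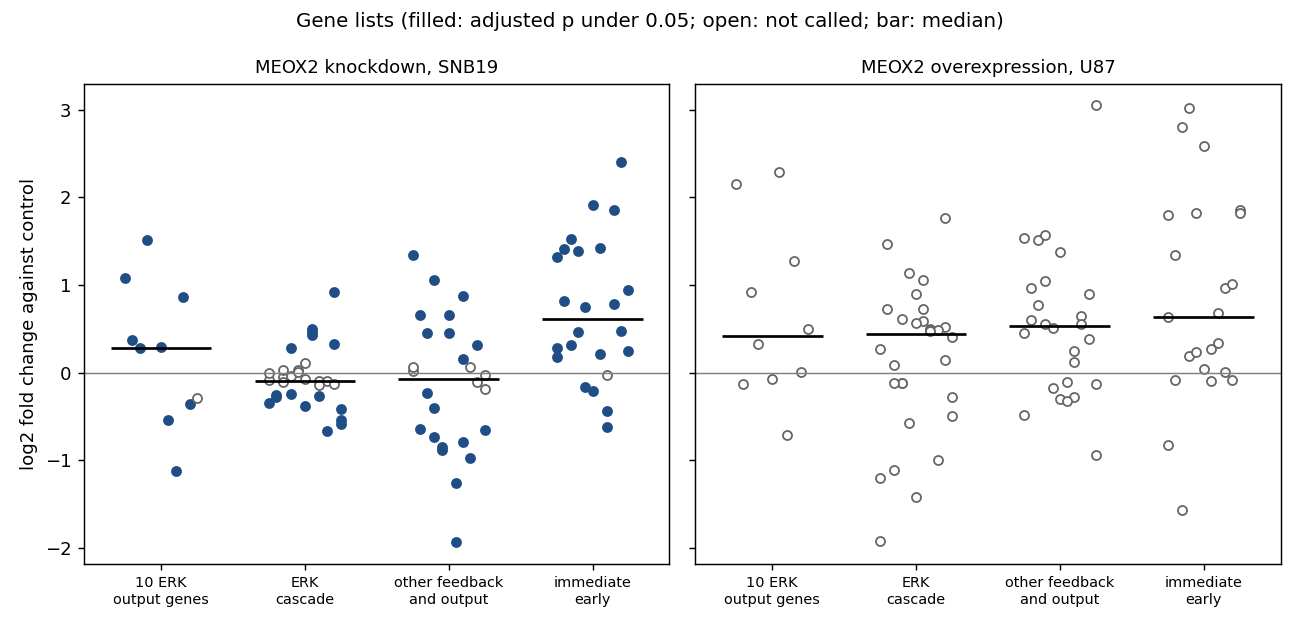
Log2 fold changes against control (y axis) of the 10 ERK output genes and of 3 other lists (x axis), in SNB19 after MEOX2 knockdown (left) and in U87 after MEOX2 overexpression (right). Filled points passed an adjusted p of 0.05, open points did not, and bars are medians. In SNB19 the immediate early genes lie mostly above 0 (median 0.61) and the cascade genes around 0, and in U87 every point is open.

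The ERK output genes did not share 1 pattern. After centring each line on its mean, DUSP1 and EGR1 had a Pearson r of 0.96 over the 10 libraries, SPRY2 and DUSP6 0.93, and DUSP4 and ETV4 −0.93. These values describe 10 libraries that share lines and groups, and EV replicate 1 enters each of them. Among 11332 expressed genes outside the set, the closest in the same measure were UBAP1 to SPRY2 (r = 0.999), UBXN7 to SPRY4 (0.998), TOMM20 to DUSP5 (0.996), SMG5 to DUSP1 (0.996), KCND1 to DUSP4 (0.994) and ZNF136 to EGR1 (0.993). For the other members they were ADPRM to ETV4 (0.991), CREB5 to SPRED1 (0.986) and ZFP41 to ETV5 (0.960). DUSP6 was left out because it was called in neither line.

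The genes lie on separate chromosomes or far apart, in GRCh38 coordinates of the GENCODE annotation. DUSP1, EGR1 and SPRY4 are all on chromosome 5, at 172768090 to 172771195, 138465490 to 138469315 and 142310427 to 142326455. DUSP5 lies on chromosome 10 (110497838 to 110511544), DUSP6 on chromosome 12 (89347232 to 89353271) and SPRY2 on chromosome 13 (80335976 to 80340951). SPRY4 contains the antisense gene SPRY4-AS1 within its bounds with no shared exon base, and that RNA had 3 to 60 reads in a library.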

How the data were processed

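RNA-seq was available for 10 libraries. The authors deposited 1 table with raw read counts per gene and FPKM values, and the submitters' processing notes name HISAT2, HTSeq 0.11.2, DESeq2 1.26.0 and GRCh38. The deposited FPKM equals the count divided by 1 exon length per gene and by the total of the count column, so it carries no correction for library composition. Counts were tested with edgeR 4.0.16 (glmQLFit and glmQLFTest, TMM scaling, filterByExpr), in 1 fit per cell line or over all 10 libraries, and p-values were adjusted by Benjamini-Hochberg over all genes tested. Log2 changes come from these fits and levels from FPKM. DESeq2 1.42.0 served as an alternative, and the script was tested on simulated data. Intervals cover the spread between libraries only. The 10 genes, their promoters and the 3 other lists were chosen with earlier results of these data known. Named list genes are the 3 called genes with the largest absolute log2 change per list and comparison. For likeness, genes with a mean of at least 5 CPM were compared on log2(CPM + 1). CCN1 and CCN2 were matched by gene ID under their older symbols. All 34567 IDs were found in GENCODE. Replicate numbers showed no pairing of the libraries in SNB19, where the correlations of same-numbered deviations were −0.07, −0.13 and 0.18. In U87 they were −0.47 for the same number and 0.47 for crossed numbers. With 2 libraries a group these values mirror each other by construction, so they cannot decide on pairing.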

Additional observations from a re-analysis of the deposited data

Results flagged for a closer look

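Of the 10 ERK output genes, 4 had changes that differed between the lines in the test of the difference itself (change in U87 MEOX2 OE minus change in SNB19 siMEOX2, edgeR, all 10 libraries). The difference was 2.85 for SPRY2, 1.11 for DUSP1, −1.16 for DUSP5 and 0.82 for DUSP6, all on the log2 scale. SPRY2 and DUSP6 had values of opposite sign in the lines, whereas DUSP1 and DUSP5 were higher in both. The sign of each of these differences was the same in all fits that left out 1 library, but the call of DUSP6 was lost in 7 of these 10 fits, and those of DUSP1 and DUSP6 with the replicate block. Groups of 3 or 2 libraries are too small for a test of single outlying libraries.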

How the results depend on the processing

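The 9 calls in SNB19 fell to 4 with all 10 libraries in 1 fit (2725 genes, 28 genes of the other lists) and to 3 by the rule of the study's methods (1629 genes, 12 list genes). In U87, edgeR called 0 of the 10 genes. DESeq2 called 2 (991 genes, 12 list genes), no filter on low counts gave 3 (1863 and 18), all 10 libraries in 1 fit gave 6 (4538 and 34) and the rule of the methods gave 3 (2781 and 23). The replicate block gave 2 (468 and 4) in U87, where it is not known whether the numbers pair the libraries. A block with crossed numbers, added after seeing the data, gave 2 (1152 and 12). Leaving out 1 library gave 0 to 9 (38 to 10616 genes, 0 to 69 list genes). Alternatives added after seeing the data were an offset for each library's trend with gene length (18 genes in U87) and 9 libraries in 1 fit without EV replicate 1 (8 of the 10, 7117 genes, 47 list genes). For the difference between the lines the 4 calls became 2 with the replicate block, which lost DUSP1 and DUSP6, and 3 to 10 with 1 library left out, 10 being the count without EV replicate 2. Between the control libraries the length offset ended the calls of DUSP1 and EGR1 and added DUSP4 and SPRED1. With the replicate block, this comparison sets the levels fitted for replicate 1 of each line against each other. It is then another quantity than in the main fit and not a check of it. DUSP1 had no call there (0.42, against 0.53 in the main fit).

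Signs turned only for SPRED1 and ETV4. In U87, SPRED1 ran from −0.28 to 0.40 with 1 library left out (−0.15 without OE replicate 1) and ETV4 from −0.42 to 0.45. With the length offset they were −0.15 and 0.11, and with 9 libraries −0.23 and 0.50. ETV4 in the difference ran from −0.69 to 0.22, and SPRED1 between the control libraries from −0.095 to 0.54. The cause was not tested. With 2 libraries a group and an EV pair this far apart, log2 changes over 2, such as those of SPRY2 and DUSP1, did not pass edgeR's test in U87.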
